A study of Homo sapiens with 346 samples.

Results

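The cells described here were the 30 live HCT-116 cells with the highest and the 30 with the lowest level of mitotic genes, out of 91 live HCT-116 cells with values and 346 labelled cells in the series. HCT-116 is an epithelial line from a human colorectal carcinoma, and the labels name no arrest or synchronisation of the culture, so the culture is taken as unsynchronised. The live cells were stained with propidium iodide so that dead cells could be left out, sorted as singlets into plates and sequenced one by one with Smart-seq2, a method that makes full-length cDNA from polyadenylated RNA. Cells of the same line fixed in 80% methanol and stored for 1 week gave 92 further profiles. The HCT-116 experiment was carried out once, so all cells of one treatment count as 1 sample, a cell is no replicate, and no test was run.

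The cells were chosen by their measured level of 10 genes. The score that ranked them was the mean log2(TPM + 1) of TOP2A, MKI67, CCNB1, CDC20, PLK1, AURKA, CENPF, UBE2C, BUB1 and TPX2, where TPM is the share of a gene among all transcripts of a cell, corrected for transcript length. These 10 genes were left out of everything below. The 30 high cells had scores of 6.04 to 8.21 (median 6.76), the 31 middle cells 4.10 to 5.96 (median 5.12) and the 30 low cells 0.19 to 4.08 (median 1.5). The score ran on without a gap at either border: the lowest high cell stood at 6.04 and the highest middle cell at 5.96, and the lowest middle cell at 4.10 and the highest low cell at 4.08. Within 0.25 of the upper border lay 8 cells, and within 0.25 of the lower border 5. High and low are thus ranges of a score and not cell types, and because the cells were ranked by their own RNA, each difference between them is a description of these cells.

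As background, a dividing cell copies its DNA in S phase, prepares to divide in G2 and separates its chromosomes in mitosis. Genes for DNA replication are switched on around the start of S phase, largely by E2F factors. Genes for the spindle and for cell division come on later, in G2 and mitosis. Their control involves the DREAM and MuvB complexes, B-MYB and FOXM1, and many of their promoters carry elements named CHR and CCAAT. Many of the late proteins are destroyed at the end of mitosis by the anaphase-promoting complex, and cells that rest in G0 or early G1 hold little of either set of RNAs.

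The live cells had 0.7 to 5.3 M (mega) reads. The high cells were somewhat deeper, with a median of 2.7 M reads (1.2 to 5.3) against 2 M (0.7 to 4.1) in the low cells, and listed a median of 12685 genes above 0 TPM against 11855.5. Over the 91 cells the Spearman correlation of the score was 0.233 with reads and 0.322 with genes above 0, given as a description of points that share a library. Ribosomal RNA took a median of 241606 TPM in the high and 256176 TPM in the low cells. Of 14 intestinal and epithelial markers 11 averaged 1 TPM or more, against 0 of 7 hepatocyte, 1 of 5 fibroblast (COL1A1) and 1 of 8 blood cell markers (CD68). Summed per cell, the fibroblast markers reached at most 3.14 TPM in high and 7.23 TPM in low cells, and the blood cell markers 20.3 and 42.4 TPM. The part of depth and of these markers in the differences below was not tested, except where values for cells paired on reads are given.

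Levels were compared as the difference of mean log2(TPM + 1), high minus low, called the log2 difference below; it understates the change of genes near 0 TPM. A gene with a mean of 1 TPM or more over the 91 cells was described, which kept 11796 of 28806 listed genes. Of these, 789 (6.69%) were at least 2-fold higher in the high cells, that is, at a log2 difference of 1 or more, and 91 (0.771%) were at least 2-fold lower. The higher genes thus made up 89.7% of the genes past the line, 77.4% when cells were rescaled by median ratios, which moved the median log2 difference of all genes from 0.20 to 0.03, and 60% by the ratio of mean TPM. At least 8-fold higher were 92 genes, 32 of them on the G2/M list of the Seurat package, and no gene was 8-fold lower.

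The high cells differed from the low cells first in the machinery of mitosis itself. Of the 46 other genes on the Seurat G2/M list, 43 were at least 2-fold higher, none was lower, and the median log2 difference was 3.89 against 0.20 for all genes described. The list overlaps in content with the score genes, so its direction was set by the choice of cells. The mean of these 46 genes ran from 5.08 to 6.72 log2 units in the high cells (median 5.65), from 2.93 to 5.39 in the middle cells (median 4.31) and from 1.06 to 4.50 in the low cells (median 1.80). No low cell reached the lowest high cell. Over the 91 cells it followed the score with a Spearman correlation of 0.965.

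**Figure D1:**
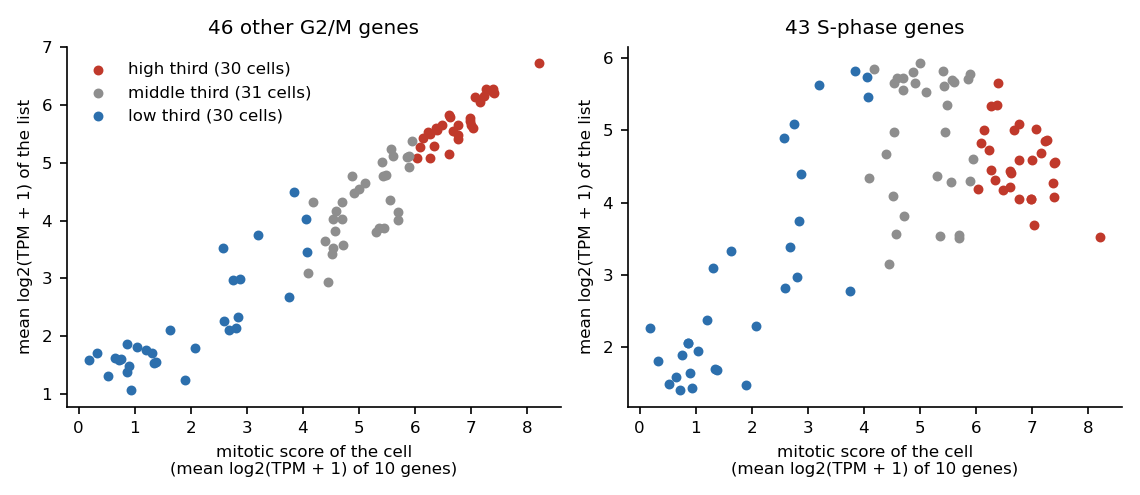
Each point is 1 of 91 live HCT-116 cells, with the mitotic score on the horizontal axis and the mean log2(TPM + 1) of a gene list on the vertical axis, for 46 G2/M genes (left) and 43 S-phase genes (right), coloured by high, middle and low cells. The G2/M mean climbs along the whole score, while the S-phase mean is highest among the middle cells (median 5.35) and lower in the high cells (median 4.56).

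The mitotic kinases included the gene with the largest difference. AURKB, the kinase of the chromosomal passenger complex that corrects faulty attachments of chromosomes to the spindle, had 80.8 to 376 TPM in the high cells (median 181 TPM). In the low cells it ran from 0 to 109 TPM, with 19 of 30 cells listed at 0, and the middle cells had a median of 75.1 TPM. Its log2 difference of 6.18 was the largest of all genes with a mean of at least 10 TPM, from a mean of 7.58 (SD 0.54 over 30 cells) to 1.40 (SD 2.1). The ranges overlapped in a few cells only: 27 of 30 high cells lay above every low cell.

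NEK2, a centrosomal kinase, had a median of 78.2 TPM in the high cells (8.61 to 190.6 TPM) and of 0.266 TPM in the low cells (0 to 11.1 TPM), a log2 difference of 5.18. BUB1B, which encodes the checkpoint protein BUBR1, had a median of 53.3 TPM in the high cells, while 23 of 30 low cells were listed at 0, a log2 difference of 4.81. CDK1, the kinase that drives entry into mitosis, had a median of 225 TPM in the high and 0 TPM in the low cells and a log2 difference of 4.58. It was listed at 0 in 2 high cells as well. In all, 15 of 17 mitotic kinases and phosphatases were at least 2-fold higher and none was 2-fold lower. The lowest log2 difference of the list was -0.21.

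The genes of cytokinesis and of the motors along the spindle were higher without exception. The cells were chosen by mitotic genes, so the direction of these genes was set by that choice too. KIF20A and KIF23 count in both lists that follow. All 13 described genes of the chromosomal passenger complex and cytokinesis were at least 2-fold higher, with a median log2 difference of 4.05, and so were all 13 mitotic kinesins, with a median of 3.34. KIF20A, a kinesin of the central spindle, had 9.27 to 216 TPM in the high cells (median 69.3 TPM) and 0 to 18.6 TPM in the low cells, where 23 of 30 were at 0. KIF2C, which takes microtubules apart at the centromere, had medians of 76.1 and 0 TPM and a log2 difference of 5.30. CDCA8 encodes borealin, which holds the passenger complex on the chromosome. Its medians were 57.6 and 0 TPM, a log2 difference of 4.93. For KIF23, a motor of the midzone that is needed to cut the daughter cells apart, the medians were 63.01 and 0.217 TPM and the log2 difference 4.60.

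Some spindle and kinetochore genes separated the groups completely. DLGAP5, a protein that stabilises spindle fibres, had 20.6 to 128.2 TPM in the high cells and 0 to 17.5 TPM in the low cells, so that every high cell lay above every low cell. The same held for KNSTRN, an adaptor of the kinetochore, with 47.4 to 209 TPM against 0 to 24.5 TPM, and for NUSAP1, which bundles microtubules, with 62 to 172.6 TPM against 0 to 45.3 TPM. Only 9 of the 11796 genes (0.0763%) separated the groups in this way, namely CCNA2, DLGAP5, CDCA3, KNSTRN, NUSAP1, CCNB2, BIRC5, FAM72D and CENPE, and no gene did so in the other direction. NDC80, the outer kinetochore protein that grips microtubules, had a median of 60.7 TPM in the high cells and 24 of 30 low cells at 0. The checkpoint gene MAD2L1 had medians of 263 and 7.26 TPM. Past the 2-fold line were 37 of 42 checkpoint and kinetochore genes (median log2 difference 2.36) and 24 of 26 spindle and centrosome factors (median 3.46), none of them lower.

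The building material of the spindle was higher as well. Of 13 tubulins 10 were at least 2-fold higher, with a median log2 difference of 1.48. TUBA1B, the most abundant tubulin RNA here, had 885 to 2062 TPM in the high cells and 31.9 to 1436 TPM in the low cells (medians 1497 and 165.6 TPM). TUBB4B had medians of 760 and 81.9 TPM and the largest log2 difference of the list, 3.10. Tubulin genes are close in sequence, so the split of reads among them is uncertain. KPNA2, an importin that also guides spindle assembly, had medians of 632 and 62.9 TPM, and the lamin gene LMNB1 18.4 and 0 TPM, with 12 of 24 nuclear envelope genes at least 2-fold higher.

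Genes for chromosome structure and chromatin proteins were higher in part, and none was past the line in the other direction. NCAPG, a subunit of condensin I, which compacts chromosomes in mitosis, had 48.5 to 174.2 TPM in the high cells and a median of 1.54 TPM in the low cells, a log2 difference of 4.79. Condensin and cohesin genes together had 12 of 21 members at least 2-fold higher and a lowest log2 difference of -0.32. Variant histone and chromatin protein genes had 7 of 17 at least 2-fold higher and a lowest log2 difference of 0.15. HMGB2, an abundant DNA-bending protein, had 216 to 1333 TPM in the high cells (median 506 TPM) and 0 to 258 TPM in the low cells (median 16.3 TPM). The replacement histone gene H2AFZ was high throughout, with medians of 1741, 1813 and 718 TPM in high, middle and low cells and a log2 difference of 1.54.

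**Figure D2:**
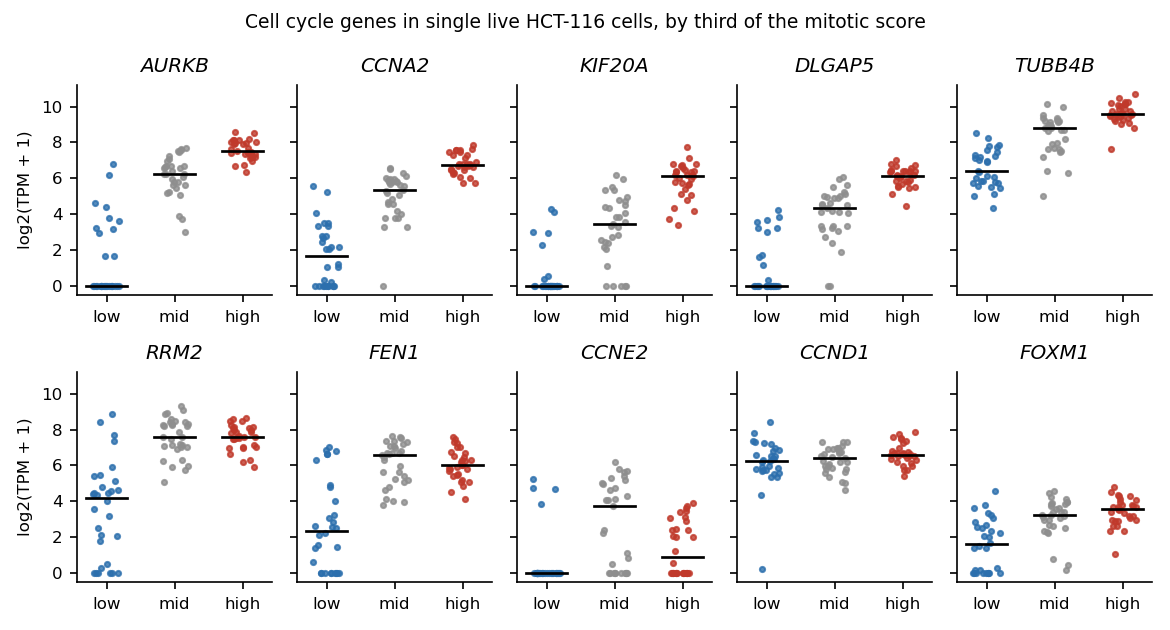
Points are single live cells (30 low, 31 middle, 30 high), the vertical axis is log2(TPM + 1) and bars mark medians, for 10 cell cycle genes. AURKB, CCNA2, KIF20A and DLGAP5 climb from low to high, RRM2 is level between middle and high (194 and 195 TPM), FEN1 and CCNE2 are highest in the middle cells, and CCND1 overlaps across all groups.

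The cyclins differed in their course along the score. CCNA2, which encodes the cyclin A of S phase and G2, had 51.6 to 233 TPM in the high cells (median 107.2 TPM), a median of 38.9 TPM in the middle cells and 0 to 45.7 TPM in the low cells (median 2.21 TPM). Its log2 difference was 5.09, from a mean with an SD of 0.58 over high cells to one with an SD of 1.69 over low cells. CCNB2, a partner of CDK1, had medians of 156.9, 64.9 and 10.1 TPM in high, middle and low cells, and CCNF, a receptor for ubiquitination in G2, of 32.7, 9.87 and 0.0867 TPM. These late cyclins were thus highest in the high cells.

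The cyclins of G1 behaved otherwise. CCNE2, a cyclin of the G1 to S transition, had medians of 0.889, 12.3 and 0 TPM and was listed at 0 in 14 high, 10 middle and 26 low cells. CCNE1 was highest in the middle cells too, and its log2 difference between high and low cells was -0.57. CCND3 had medians of 21.6, 35.5 and 14.2 TPM and a log2 difference of 1.03, which was 0.50 in 20 pairs of high and low cells matched on reads and 0.63 by the ratio of mean TPM, short of the line. CCND1, the main D-type cyclin of this line by level, had 41.4 to 235 TPM in the high cells and 0.169 to 342 TPM in the low cells, with a log2 difference of 0.51. CCND2 was listed at 0 in every high and every low cell. Of the 9 cyclins described, 4 (44.4%) were at least 2-fold higher in the high cells, beside 6.69% of all genes. The mean was highest in the middle cells for 3 (33.3%), close to the 30.3% of all genes.

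Around the cyclins, 6 of 14 CDK, CKS and CDK inhibitor genes were at least 2-fold higher and 1 was 2-fold lower. The shares of all genes were 6.69% and 0.771%. CKS2, a small subunit of CDK complexes, had 543 to 1995 TPM in the high and 8.97 to 604 TPM in the low cells (medians 1126 and 143.6 TPM). The lower gene was CDKN1A, which encodes the CDK inhibitor p21. It had a median of 21.7 TPM (0 to 230) in the high and of 49.7 TPM (0 to 1441) in the low cells, with a log2 difference of -1.06, and the groups overlapped over most of their range. This call ended with a pseudocount of 0.1 (-0.96) and with the 45 highest and lowest cells (-0.98). It also ended with the score from TOP2A, MKI67, CENPF, BUB1 and TPX2 alone (-0.98). CDKN1B, the inhibitor p27, stood at medians of 2.67 and 2.06 TPM and a log2 difference of 0.26.

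Genes for the factors that regulate the cell cycle genes differed less than the late genes. FOXM1, which drives the late genes, had 1.04 to 26.6 TPM in the high cells (median 10.7 TPM) and 0 to 23.1 TPM in the low cells (median 2.03 TPM), a log2 difference of 1.84. MYBL2, encoding B-MYB, had medians of 7.30, 8.30 and 1.998 TPM and a log2 difference of 1.28. E2F1 was highest in the middle cells, with medians of 3.33, 8.98 and 0 TPM. Of 20 E2F, RB, DREAM and MuvB genes 5 (25%) were past the 2-fold line, beside 6.69% of all genes. The median log2 difference of the 20 was 0.80, beside 0.20 for all genes. Among the anaphase-promoting complex and its regulators, 6 of 20 genes (30%) were past the line and the median was 0.48. PTTG1, the securin that holds chromatids together until anaphase, was the largest of these, with medians of 424 and 24.4 TPM and a log2 difference of 3.69.

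Because the higher genes moved together, their promoters were read for the elements named above. A promoter was the 250 bases before the RefSeq start (GRCh38.p14), which a reference table held for 8857 of the 11796 genes. CHR was searched as TTTGAA or TTCGAA, the CCAAT box as CCAAT and the E2F site as TTTNNCGC (N is any base), on both strands. CHR was found in 53.8% of 39 G2/M promoters, 9.09% of 33 S-phase promoters, 9.52% of the promoters of all genes described and 14.6% of all 27305 promoters in the table. CCAAT was found in 64.1% of the G2/M, 66.7% of the S-phase, 36.1% of the described and 33% of all promoters. E2F was found in 10.3%, 36.4%, 9.66% and 5.93%. Among the 595 promoters of genes at least 2-fold higher, CHR was found in 20%, and among the 65 of genes at least 2-fold lower in 16.9%. For the 74 promoters of genes at least 8-fold higher it was 52.7%. A match is a string of letters and does not show that a factor binds.

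Of the 15 genes with the largest positive difference, 13 had a promoter in the table. A CHR match within 100 bases of the start was carried by 4 of these. In that shorter window CHR was found in 2.55% of the promoters of all genes described and 4.94% of all promoters. The last 120 bases before the start of these 4 genes are shown, because they place the CHR of genes described above. All lie on the plus strand, at chr1:37692396-37692515 (CDCA8), chr15:40160949-40161068 (BUB1B), chr4:17810859-17810978 (NCAPG) and chr15:69414229-69414348 (KIF23). Capitals mark CHR (TTTGAA) and CCAAT, the latter read here as ATTGG from the other strand.
CDCA8: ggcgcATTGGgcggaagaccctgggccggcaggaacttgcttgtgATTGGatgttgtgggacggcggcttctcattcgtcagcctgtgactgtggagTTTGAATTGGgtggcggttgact
BUB1B: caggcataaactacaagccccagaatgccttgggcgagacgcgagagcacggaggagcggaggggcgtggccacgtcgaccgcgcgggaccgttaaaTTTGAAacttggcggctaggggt
NCAPG: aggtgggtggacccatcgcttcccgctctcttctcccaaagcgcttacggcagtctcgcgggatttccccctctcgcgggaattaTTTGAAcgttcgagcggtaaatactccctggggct
KIF23: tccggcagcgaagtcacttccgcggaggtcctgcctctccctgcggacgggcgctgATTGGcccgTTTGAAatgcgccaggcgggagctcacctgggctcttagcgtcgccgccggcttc
The CHR match began 23 bases before the start in CDCA8 and in BUB1B, 35 bases before it in NCAPG and 55 bases before it in KIF23. CDCA8 carried 3 CCAAT matches, the last 2 at 75 and 18 bases, of which the nearer shared letters with its CHR, and KIF23 one at 64 bases, while these windows of BUB1B and NCAPG held none.

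DNA replication genes formed the other large group, with a different course along the score. Of 43 genes on the Seurat S list, 33 were at least 2-fold higher in the high than in the low cells and none was lower, with a median log2 difference of 1.63. In 37 of them (86.05%), however, the mean was highest in the middle cells, against 3572 of all 11796 genes (30.3%), and the median difference of middle minus low cells was 1.91. The mean over the list ran from 3.52 to 5.65 log2 units in the high cells, from 3.15 to 5.92 in the middle cells and from 1.41 to 5.82 in the low cells. Of the low cells, 8 lay above the lowest high cell and 6 above the median of the high cells. The low cells were therefore mixed: most had little of either list, and a few had S-phase genes at the level of the middle cells.

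RRM2, the small subunit of ribonucleotide reductase, had medians of 195, 194 and 17.5 TPM in high, middle and low cells. FEN1, which trims Okazaki fragments, had 64.6, 94.4 and 4.18 TPM, and GMNN, the licensing inhibitor geminin, 71.4, 106.1 and 13.2 TPM. UHRF1, which carries DNA methylation onto new DNA, had 25.5, 45.3 and 7.58 TPM. In each of these genes the low cells overlapped the high cells widely, with single low cells at 467 TPM of RRM2 and 131.5 TPM of FEN1.

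By function, 19 of 26 licensing and helicase genes were at least 2-fold higher (median log2 difference 1.56), as were 22 of 27 polymerase, clamp and loader genes (1.39), 8 of 12 genes of deoxynucleotide synthesis (1.64), 15 of 23 genes of homologous recombination and the Fanconi pathway (1.41) and 9 of 13 histone chaperones (1.13). None of these lists had a gene past the line in the other direction. The mean was highest in the middle cells for 16, 19, 9, 11 and 11 of their genes. DBF4, the activator of the origin-firing kinase CDC7, was instead highest in the high cells, with medians of 21.3, 6.54 and 3.65 TPM, as was RAD51AP1, a factor of homologous recombination, with 13.7, 8.74 and 0 TPM.

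Ribosomal, proteasome and respiratory chain genes differed little. None of 79 cytosolic ribosomal protein genes, 31 proteasome genes or 38 nuclear respiratory chain genes was past the 2-fold line, with median log2 differences of -0.01, 0.35 and 0.14. With median-ratio scaling these medians were -0.26, 0.10 and -0.11, so the sign for the respiratory chain depended on the scaling. The largest ribosomal difference was 0.32 (RPL35, medians 1726 and 1515 TPM). Chaperones stood higher, with a median of 0.61 (0.36 with median-ratio scaling). Past the line were 4 of their 22 genes (18.2%), beside 6.69% of all genes. HSPA8, the constitutive HSP70, led them with medians of 1218 and 499 TPM and a log2 difference of 1.33. Cholesterol and fatty acid synthesis had 1 of 23 past the line, FDPS, with 160 and 66.5 TPM and a log2 difference of 1.13, or 0.88 with median-ratio scaling. Lysosome genes had 1 of 21 at least 2-fold higher and a median of 0.00, which was -0.24 with median-ratio scaling. The higher one was GLA, at a log2 difference of 1.12, which was 0.56 by the ratio of mean TPM. Ribosomal RNA had 0 of 4 past the line and a median of -0.33.

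Some of the immediate early genes, which answer growth signals, were past the line. Of 24 genes 4 (16.7%) were at least 2-fold higher and none was 2-fold lower, beside 6.69% and 0.771% of all genes. The higher ones were FOSL1 (medians 90.1 and 42.1 TPM), DUSP2, KLF10 and EGR1. The median of the list was 0.20, the same as for all genes. In fixed cells DUSP2 stood at -0.67, and FOSL1, KLF10 and EGR1 at 1.92, 1.90 and 1.03. EGR1, at 1.07, was short of the line with median-ratio scaling (0.84), and KLF10, at 1.41, by the ratio of mean TPM (0.63). None of 10 G1 growth and YAP or Wnt target genes was past the line, and MYC had medians of 230.1 and 162.04 TPM.

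**Figure D3:**
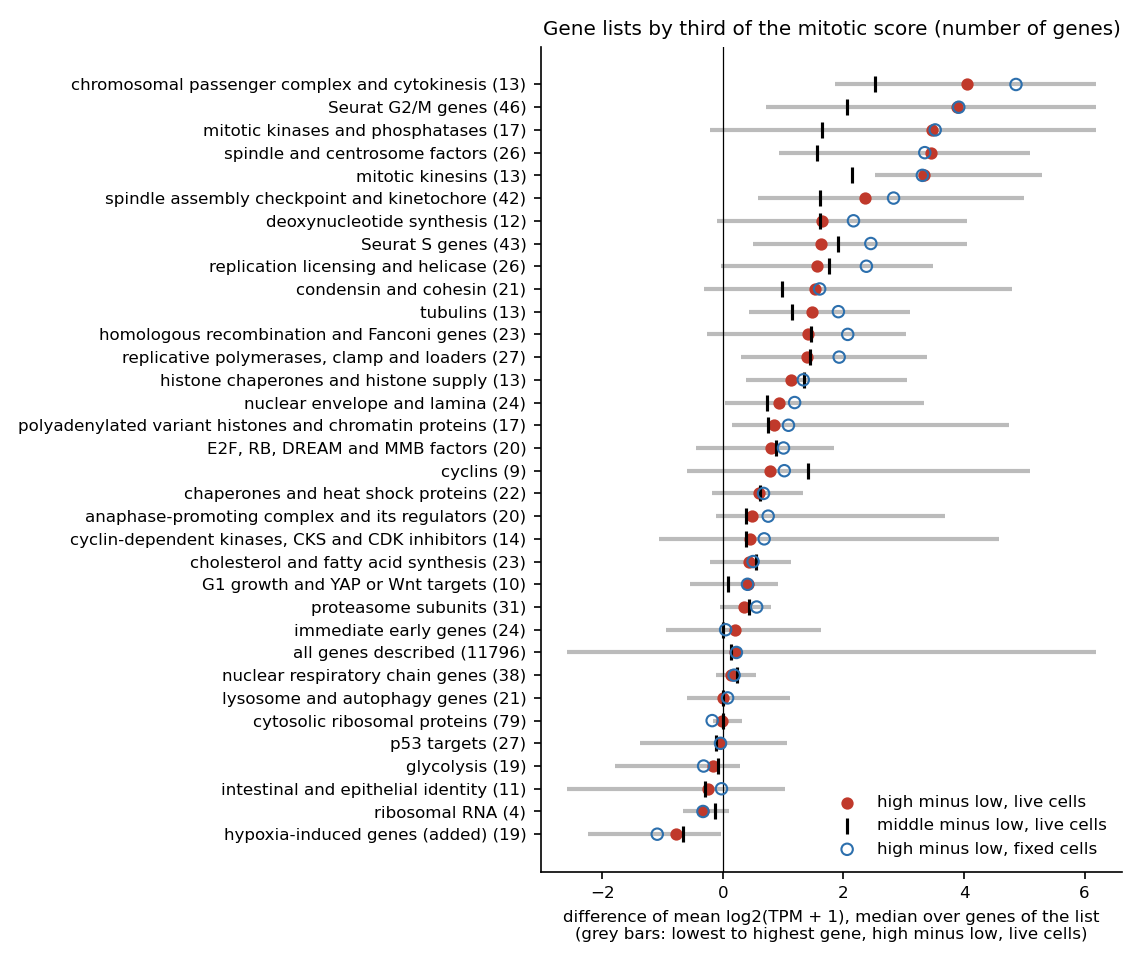
Each row is a gene list, with its number of described genes in brackets, and the horizontal axis is the difference of mean log2(TPM + 1). Red points are the median over genes of high minus low in live cells, black ticks of middle minus low, open blue circles of high minus low in fixed cells, and grey bars span the lowest to the highest gene. The lists of mitosis stand to the right of their black ticks, whereas the S-phase list (1.63) stands to the left of its tick (1.91).

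The genes lower in the high cells were fewer, differed less and overlapped in every case. ELF3, an epithelial transcription factor, had 0 to 50.1 TPM in the high cells (median 11.3 TPM), a median of 20.5 TPM in the middle cells and 3.02 to 616 TPM in the low cells (median 54.01 TPM). Its log2 difference of -2.58 was the largest in this direction. PTGES, which makes prostaglandin E2, had medians of 9.11 and 25.8 TPM, and GRB7, an adaptor of receptor tyrosine kinases, of 8.27 and 22.1 TPM. LOXL2, a lysyl oxidase, had medians of 4.20 and 16.3 TPM, and CASP4, an inflammatory caspase, of 5.24 and 13.8 TPM. The epithelial list as a whole had 1 of 11 genes at least 2-fold lower (ELF3) and 1 at least 2-fold higher (CDX2). CDX2 stood at 1.03, or 0.82 with median-ratio scaling, and the median of the list was -0.25. KRT19, the keratin of simple epithelia, had medians of 692 and 1050 TPM.

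Several of the lower genes are known to be induced by low oxygen. ANGPTL4, a secreted lipase inhibitor, was listed at 0 in 19 high, 15 middle and 9 low cells and reached 42.8 TPM in high and 188.4 TPM in low cells. It averaged 4.474, 6.196 and 35.99 TPM in high, middle and low cells. ANGPTL4 thus reached the mean of 10 TPM set for named genes only through the low cells. NDRG1 had medians of 6.78 and 20.6 TPM, and ALDOC, an aldolase, of 14.6 and 33.6 TPM. DDIT4, an inhibitor of mTORC1, had medians of 48.8 and 166.9 TPM, yet the highest high cell stood at 1926 TPM, above the highest low cell at 1860 TPM. In a list of hypoxia-induced genes drawn up after these were seen, and so chosen for its direction, 6 of 19 genes were at least 2-fold lower, none was higher, and the median log2 difference was -0.79. It was -0.35 among the 20 pairs of cells matched on reads. Of all genes described, 0.771% were lower and 6.69% higher, with a median of 0.20. In the pairs these shares were 1.36% and 5.65%. The 6 lower genes were NDRG1, BNIP3L, ALDOC, ANGPTL4, DDIT4 and EGLN3, and 4 of them were past the line in the paired cells. There DDIT4 stood at -0.54 (-1.52 in all cells), EGLN3 at -0.88 (-1.01) and ANGPTL4 at -1.06 (-2.24). The mean of the list per cell ran from 1.49 to 6.34 log2 units in the high and from 2.69 to 6.90 in the low cells, so the groups overlapped over nearly the whole range.

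Targets of p53 showed no common direction, with a median of -0.06. Of 27 genes 3 were at least 2-fold lower and 1 at least 2-fold higher (SERTAD1, 1.06, or 0.81 with median-ratio scaling). Of all genes described, 0.771% were lower and 6.69% higher. The lower ones were CDKN1A, described above, TP53INP1 and GDF15. TP53INP1 averaged 0.42, 0.31 and 3.44 TPM in high, middle and low cells, so it passed the filter of 1 TPM only through the low cells. In fixed cells TP53INP1 stood at -0.66 and CDKN1A at -0.45, short of the line, and GDF15 at -2.68. GDF15, a stress-induced cytokine, had 4.40 to 3361 TPM in the high cells (median 158.1 TPM) and 1.79 to 2582 TPM in the low cells (median 730 TPM). Its log2 difference was -1.38, or -0.87 with the 45 highest and lowest cells. TNFRSF10D, a decoy receptor for TRAIL, had medians of 10.5 and 27.5 TPM and a log2 difference of -1.45. Glycolysis had 1 of 19 genes at least 2-fold lower, ALDOC.

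Histone genes went both ways. HIST1H2AC was at 0 in 20 of 30 high and 12 of 30 low cells (log2 difference -1.89), and HIST1H2BD in 16 and 10 (-1.86), whereas HIST1H4C had medians of 629, 3062 and 15.7 TPM in high, middle and low cells and a log2 difference of 1.70. By the ratio of mean TPM HIST1H2AC stood at -0.87, short of the line, and 1 high cell reached 543 TPM, above the highest low cell at 236 TPM. Over all 38 genes with a HIST symbol, a group added to the lists, 5 were at least 2-fold higher and 4 at least 2-fold lower. The shares of all genes described were 6.69% and 0.771%. The median over the 38 was 0.29, beside 0.20 for all genes. Histone copies are near-identical in sequence, so reads could be split among them in kallisto. The remaining genes of the 15 most negative were the RNAs SCARNA21 (at 0 in 25 high and 14 low cells), which lies within another gene, and LINC00173 (medians 5.30 and 18.3 TPM). Like ANGPTL4, the genes SCARNA21, HIST1H2BD, PTGES, LOXL2 and LINC00173 averaged less than 10 TPM in high and in middle cells. They too reached the mean of 10 TPM set for named genes only through the low cells.

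**Figure D4:**
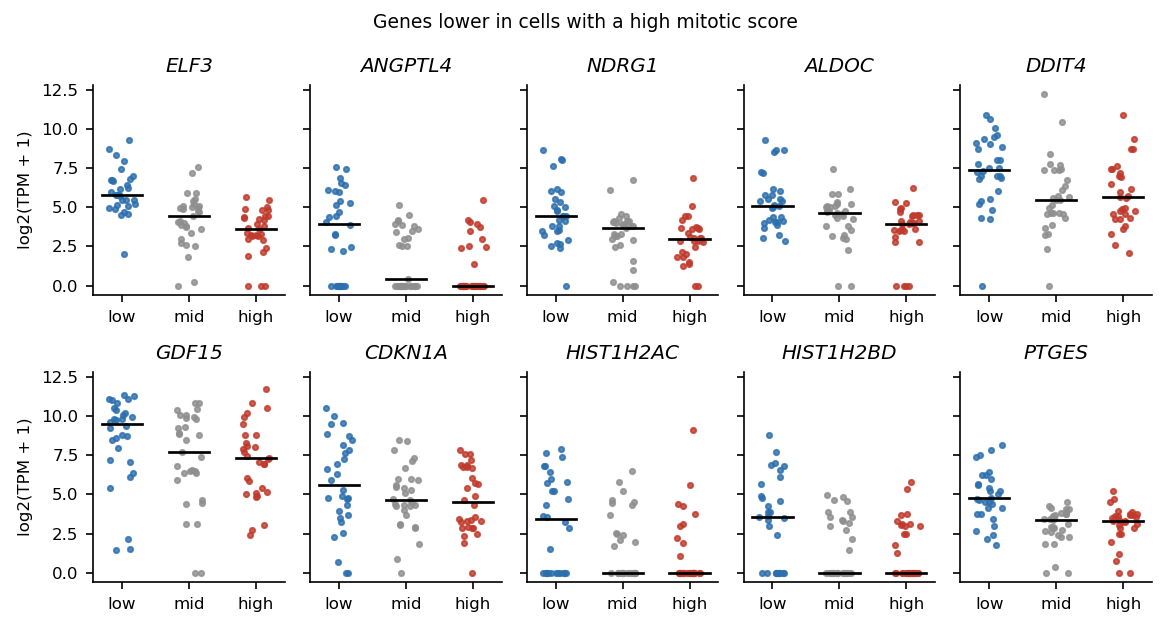
Points are single live cells (30 low, 31 middle, 30 high), the vertical axis is log2(TPM + 1) and bars mark medians, for 10 genes at least 2-fold lower in the high cells. All overlap between groups; ELF3 has medians of 54.01 TPM in low and 11.3 TPM in high cells, and many cells of all groups lie at 0 for ANGPTL4, HIST1H2AC and HIST1H2BD.

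The fixed HCT-116 cells, which were not used to choose the live cells or the 30 genes with the largest differences, were ranked by the same score of mitotic genes, so the direction of other mitotic genes was set by that choice here too. Their 30 high cells had a median score of 6.99 and their 30 low cells of 1.38. At least 2-fold higher were 1198 of the 11796 genes (10.2%) and lower 0.941%. Higher in both were 549 genes, which is 69.6% of those of the live and 45.8% of those of the fixed cells. Lower in both were 33, or 36.3% and 29.7%. In opposite directions were 2 genes higher in live and lower in fixed cells, and none the other way.

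All 15 genes with the largest positive difference in live cells were past the line in fixed cells too, at log2 differences of 4.18 (KNSTRN) to 6.26 (DLGAP5). AURKB had 6.11 in fixed beside 6.18 in live cells. The G2/M list had a median of 3.91 beside 3.89, with 44 of 46 genes higher, and the S list 2.45 beside 1.63, with 40 of 43. Of the 15 most negative genes 9 were past the line, with GDF15 at -2.68, ALDOC at -2.30, HIST1H2BD at -2.28, NDRG1 at -1.90 and ELF3 at -1.37. LINC00173 had -0.97, LOXL2 -0.66, CASP4 -0.55, PTGES -0.33, SCARNA21 -0.06 and GRB7 0.11, short of the line. The hypoxia list had a median of -1.09 in fixed cells, with 10 of 19 genes lower. Live and fixed cells were taken from 1 culture, and the difference between them was not tested.

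**Figure D5:**
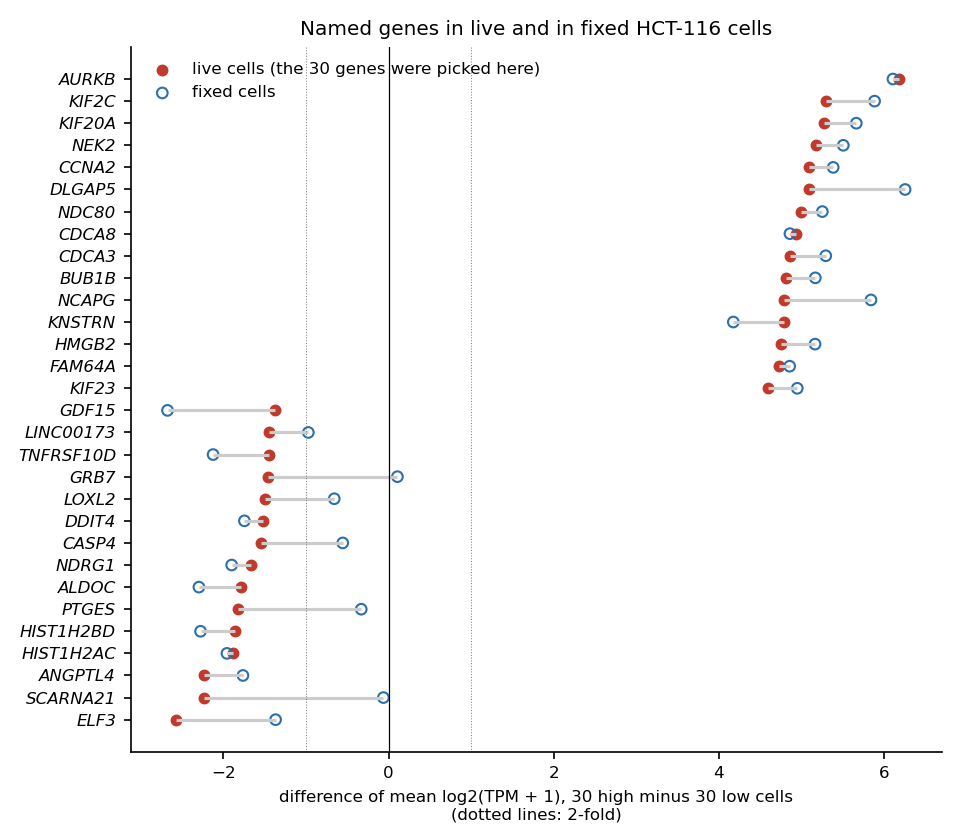
The 30 genes with the largest differences in live cells are on the vertical axis, and the horizontal axis is the difference of mean log2(TPM + 1), 30 high minus 30 low cells, with red points for live and open blue circles for fixed cells and dotted lines at 2-fold. The 15 higher genes stay beyond 4 in both, while 9 of the 15 lower genes are past the line in fixed cells.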

How the data were processed

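Per the labels and the methods, the authors quantified the reads of each Smart-seq2 library with kallisto 0.46.0 against GRCh38 transcripts, summed transcripts to genes with tximport, kept cells with more than 4000 genes and deposited TPM per gene (983524 to 998313 TPM per live cell). The deposited transcript table is named TPM but holds CPM, not divided by length. It served only to read the total reads per cell from the smallest step of its CPM values, with a resolution of 0.1 M; depending on the cell, 18.2% to 32.5% of its low CPM values lay at whole reads, since kallisto shares reads among transcripts, so no count test was run. Doublets were handled only by the singlet gate at sorting. Cell numbers in the columns did not match those in the sample labels, so columns were assigned to a treatment, not to a labelled cell, and no plate is known. Cells labelled HepG2 were not used.

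The score, groups and differences were computed as in the report, with a pseudocount of 1 (Python 3.11.15, numpy 2.4.6, pandas 2.3.3, scipy 1.17.1, matplotlib 3.10.9), and the script was tested on simulated data. The genes named are the 15 with the largest difference in each direction among the 5313 with a mean of at least 10 TPM, up to 4 of each list with the largest absolute difference, the cyclins and CDKN1A, CDKN1B, FOXM1, MYBL2, E2F1 and CCND1; a few others were named after their values were seen, and the report or the closing section gives their values or counts as descriptions. The cells, lists and settings were chosen with earlier results of these data known. Alternatives were the pseudocount, filters, scaling, group sizes, scores from 5 of the 10 genes and cells paired on reads.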

Additional observations from a re-analysis of the deposited data

How the results depend on the processing

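Cells of 1 culture gave no replicate error, and the size of the groups and the scale set how many genes passed the 2-fold line. Numbers of genes are given here as a share of the 11796 genes described (6.69% higher and 0.771% lower in the report). With a pseudocount of 0.1 they were 17.02% and 3.75%, and the median of the G2/M list was 5.51; with the 15 highest and lowest cells 15.6% and 2.34%, and 4.76; with 45 each 3.23% and 0.170%, and 2.82. Median-ratio scaling gave 4.44% and 1.297%, the ratio of mean TPM 4.68% and 3.12%, and 20 pairs of cells matched on reads (medians 2.55 and 2.45 M) 5.65% and 1.36%. A mean of at least 10 TPM left 5313 genes and gave 4.59% and 0.305%, which is 10.2% and 0.678% of those 5313. In fixed cells (10.2% and 0.941%) the shares were 6.62% and 1.48% with median-ratio scaling and 23.5% and 3.33% with a pseudocount of 0.1. In each of 9 settings all 15 named higher genes were past the line; of the 15 named lower genes 9 were past it in every setting, and all 15 were below 0. The list medians that changed sign all lay near 0: p53 targets (0.01 with a pseudocount of 0.1), glycolysis (0.01 with 15 cells each), the respiratory chain (-0.11) and lysosome genes (-0.24, both with median-ratio scaling). The cause of these shifts was not tested. No paired analysis was possible because the cells share no replicate number or donor; the 20 pairs were matched on reads alone, and their group means were compared. At 0.7 to 5.3 M reads a TPM of 0 does not show that a gene is off.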

Other observations

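Among the genes at least 2-fold higher in live high cells were many small nucleolar RNAs, short guide RNAs that are cut from introns and direct the modification of ribosomal RNA. Of 240 described genes with a SNORD, SNORA or SCARNA symbol, a group formed after the values were seen, 53 (22.1%) were higher and 2 lower, beside 6.69% and 0.771% of all genes. Several come from the introns of SNHG1: SNORD26 had medians of 64.9 TPM in high and 0 TPM in low cells and a log2 difference of 3.96, SNORD28 of 80.2 and 0 TPM and 3.47, and SNORD27 of 91.04 and 0 TPM and 3.02. In fixed cells their log2 differences were 0.70, 0.76 and 0.94, and 16 of the 240 genes (6.67%) were higher and 6 (2.5%) lower, beside 10.2% and 0.941% of all genes, so the larger share of higher genes was not seen there. These RNAs lack a poly(A) tail, and reads of unspliced host RNA cannot be told apart from them in the table. Reads per cell differed between the groups (medians of 2.7 and 2 M). The median over the 240 genes was 0.40, and 0.28 in pairs of cells matched on reads.

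A set of genes outside the lists was lower in the high cells of both treatments. SAT1, an enzyme that breaks down polyamines and the most abundant among those named here, had log2 differences of -1.09 in live and -1.41 in fixed cells. The nuclear RNA NEAT1 had -1.54 and -1.36, the nuclear receptor coactivator PNRC1 -1.54 and -1.75, the phospholipase gene LIPH -1.64 and -1.53, the glycerol channel gene AQP3 -1.22 and -1.56, and the matrix gene SPARC -1.16 and -1.54. They were picked after their values were seen, from the 33 genes lower in both.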
